A study of Mus musculus with 6 samples.

Results

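The genes described here are 48 DNA replication and S phase genes in mouse bone marrow derived dendritic cells (BMDCs). They were chosen by name and function, with earlier results of these data known. They are genes that license and fire replication origins, copy the DNA, supply its nucleotides, drive cyclin E and E2F activity, and rebuild chromatin behind the fork. All 48 were present in the deposited count files and passed the filter on low counts, among 21849 named genes tested and 56748 gene identifiers in all. The study asked how loss of Nfkb2, which encodes the p100 precursor of the non-canonical NF-κB pathway, alters dendritic cells in the basal state. RNA-seq was done on 3 libraries of BMDCs from C57BL/6 wild-type (WT) mice and 3 libraries from Nfkb2-/- mice. Bone marrow cells of both genotypes were kept for 9 days, with GM-CSF at 20 ng/ml alone for 5 days and together with IL-4 at 10 ng/ml for the other 4 days, and no further stimulus was given. The knockout was global, so every cell type in the Nfkb2-/- cultures and in the donor mice lacked the gene. The paper calls the 3 libraries of each genotype independent biological replicates. The age and number of the donor mice of these libraries, and whether mice were pooled, were not given in the sources used here. The adjusted p-values set the genotype difference against the variation between these 6 libraries. How far they extend to other mice is therefore not known.

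Replication starts when the origin recognition complex, Cdc6 and Cdt1 load the ring-shaped Mcm2 to Mcm7 helicase onto DNA before S phase. Cyclin E with Cdk2 and further kinases then recruit Cdc45 and the GINS complex to switch the helicase on, and DNA polymerases, primase, the sliding clamp and its loader, and single strand binding proteins work at the opened fork. Most genes of this machinery are known E2F targets that are transcribed on entry into S phase, and dendritic cells that have finished differentiation divide little. In bulk RNA, fewer cells of a type and less RNA per cell cannot be told apart.

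Because E2F sites mark many of these promoters, the windows that carry them are shown for members to which the results return. RefSeq promoter windows on GRCm38.p6, from 250 bases before the annotated start to 50 bases after it, were matched for 40 members. The E2F words searched were TTTCCCGC, TTTCGCGC, TTTGCCGC and TTTGGCGC on both strands, and overlapping words were each counted. Capitals mark these words, and the sequences run 5′ to 3′ along the strand of the gene.
Mcm3 (chr1:20820266-20820294, minus strand, 2 words from 19 to 47 bases after the start): gGCGGGAAAacttgggaagtTTTGGCGCc
Mcm5 (chr8:75109336-75109387, plus strand, 173 to 122 bases before the start, 2 overlapping words): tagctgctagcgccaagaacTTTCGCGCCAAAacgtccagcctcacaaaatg
Mcm6 (chr1:128359725-128359835, minus strand, 130 to 20 bases before the start, 3 words): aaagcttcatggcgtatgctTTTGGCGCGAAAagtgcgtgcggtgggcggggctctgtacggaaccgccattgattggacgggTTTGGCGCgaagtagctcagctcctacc
Cdc6 (chr11:98907993-98908040, plus strand, 158 to 111 bases before the start, 1 word): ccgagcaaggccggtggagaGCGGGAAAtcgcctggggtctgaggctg
Gins3 (chr8:95633498-95633545, plus strand, 61 to 14 bases before the start, 1 word): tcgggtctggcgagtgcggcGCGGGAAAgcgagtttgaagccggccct

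An E2F word was found in 16 of the 40 members (40.0%), against 2.60% of all 27025 genes in the promoter table and 4.09% of the 12991 tested genes found there. By contrast, it was found in 1 of 20 genes of a mitosis list (5%). The cell cycle homology region word TTTGAA, the element bound by the DREAM complex at genes that peak in mitosis, showed the opposite order, with 5 members (12.5%), 13 mitosis genes (65.0%) and 20.2% of all genes. The CCAAT word, the letters of the NF-Y box, lay in 25 members (62.5%), in 15 mitosis genes (75.0%) and in 41.1% of all genes. A κB consensus, the motif named for NF-κB dimers, matched 1 member, Mcm7 (2.5%), against 5.14% of all genes. A match describes the letters in these windows and not binding. Only exact words were searched for E2F, so a window without such a word may still hold an E2F site with other letters. Prim2, Mcm4, Gins1, Pole, Exo1, Gins2, Ccne2 and Rfc2 had no entry.

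Library totals ran from 29863927 to 55623068 counts, so that 1 count was worth 0.0187 to 0.0344 CPM. CPM is the unit used for levels here, in which counts are scaled to library size with TMM factors. Nfkb2, the targeted gene, was at 154 to 355 CPM in WT and at 32.3 to 44.8 CPM in Nfkb2-/- libraries, and was called lower. All 8 dendritic cell genes were detected in every library, from the MHC class II gene H2-Ab1 at 696 to 1139 CPM and the CD11c gene Itgax at 123 to 769 CPM to Flt3 at 12.1 to 17 CPM and Cd209a at 3.51 to 26.9 CPM. Nfkb2-/- 1 stood apart by its 47952 detected genes, against 27692 to 33841 elsewhere. WT 3 stood apart by its low macrophage genes, whose values are given below. Erythroid markers were near absent, with 5 of 5 below the filter.

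Expression of 3 members rose in Nfkb2-/- BMDCs, and most of the other members had higher values there without passing the test. By edgeR's quasi-likelihood test with an adjusted p below 0.05 and a fold change over 1.2, 3 of 48 members were called higher in Nfkb2-/- cells, Mcm3, Gins1 and Ccne1, against 0.453% of all genes tested. None was called lower, against 0.682% of all genes. The log2 fold change was positive for 45 members and negative for Gins3, Tk1 and Pold1. Its median was 0.84 over the members and 0.08 over all genes tested. With every gene of at least 1 count in any library tested, these medians were 0.78 and 0.60. In 34 members the 3 Nfkb2-/- values lay above the 3 WT values, against 12.7% of all genes, and in Gins3 they lay below them, against 12.0% of all genes. Unadjusted p-values below 0.05 were found for 34 members on the higher side, against 9.03% of all genes, and for Gins3 on the lower side, against 8.04%.

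DESeq2, the tool named in the study, called 27 members higher and 1 lower at the same limits, against 4.33% and 4.27% of all genes. WT 2 had the highest WT value in 40 members, and without it edgeR called 26 members higher, against 3.20% of the genes then tested. Without WT 1, Nfkb2-/- 1, Nfkb2-/- 2 or Nfkb2-/- 3, edgeR called no member and no other gene, with 26 to 37 members higher at an unadjusted p below 0.05. Over all genes and both directions together, 2325 of 20947, 4088 of 19244, 2580 of 21399 and 2726 of 21093 had such a p, in that order. Without WT 3, Mcm3, Gins1 and Ccne1 were not called (edgeR's adjusted p of 0.0526, 0.0592 and 0.0648), and the 1 member called was Cdc6. Of the 21341 genes then tested, 114 were called higher and 156 lower.

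**Figure D1:**
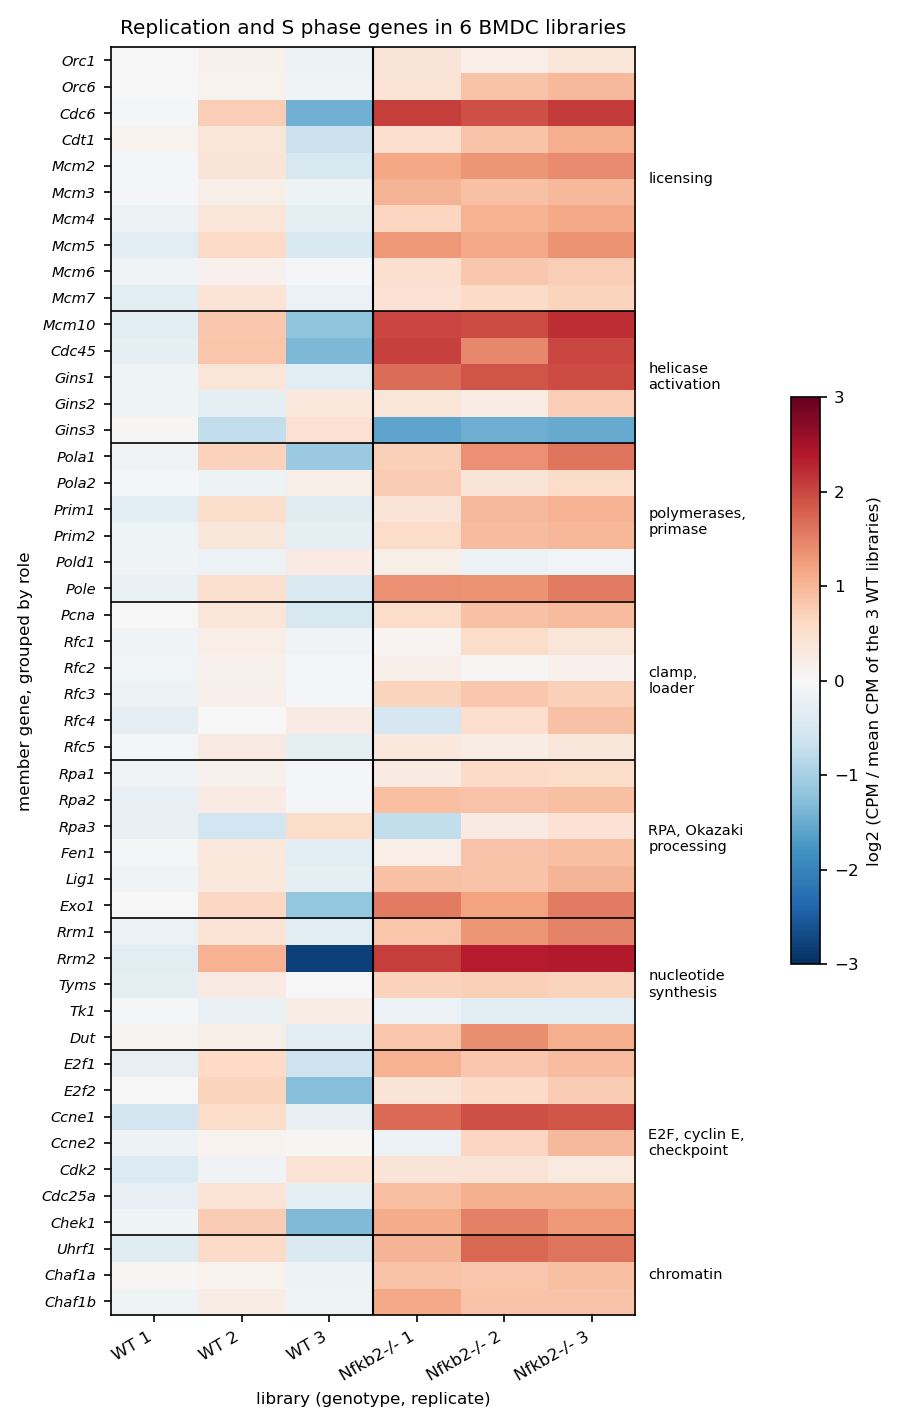
Level of the 48 members (rows, grouped by role) in the 6 libraries (columns), as the log2 ratio of CPM to the mean CPM of the 3 WT libraries, in red above and in blue below that mean. The Nfkb2-/- columns are red in most rows, Gins3 is blue in all 3, and WT 2 has the highest WT value in 40 of the 48 rows.

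The members spread less among Nfkb2-/- libraries than among WT libraries. Summed over the 48 genes, the level was 777, 954 and 810 CPM in WT 1, 2 and 3 and 1206, 1370 and 1428 CPM in Nfkb2-/- 1, 2 and 3. No WT sum reached the lowest Nfkb2-/- sum. The median coefficient of variation was 25.1% in WT and 11.8% in Nfkb2-/- libraries, and 39 members varied more in WT. Among 15316 tested genes that averaged 1 CPM or more these medians were 19.2% and 15.8%, and 57.5% of the genes varied more in WT. WT 3 had the lowest WT value in 31 members (64.6%), against 39.8% of those genes, and WT 2 the highest in 83.3% of the members, against 39.1%.

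Among the origin licensing genes, all 10 had their 3 Nfkb2-/- values above their 3 WT values, 1 was called higher by edgeR and 7 by DESeq2, and the median log2 fold change was 0.89. Of all genes tested, 12.7% had such separate higher values, and 0.453% were called higher by edgeR and 4.33% by DESeq2. At an unadjusted p below 0.05 by edgeR, 9.03% were higher. The shares on the lower side were 12.0%, 0.682%, 4.27% and 8.04% in the same order. They stand beside the groups and lists below too. Mcm3, a subunit of the replicative helicase, was at 30.3, 35.2 and 27.9 CPM in WT and at 63.3, 56.9 and 60.8 CPM in Nfkb2-/- libraries. Its libraries were tight on both sides, and the lowest Nfkb2-/- value was well above the highest WT value. The level rose by 0.95 on the log2 scale (SE 0.15, edgeR's adjusted p = 0.042).

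Mcm6, the licensing gene with the highest CPM, was at 43.5, 51.3 and 45.8 CPM in WT and at 64.9, 82.5 and 78.3 CPM in Nfkb2-/- libraries. The groups were apart, but the log2 difference of 0.68 (SE 0.15) missed the threshold (edgeR's adjusted p = 0.0899). Orc1, the largest subunit of the origin recognition complex, had the largest p of the group, with 6.43, 6.95 and 5.71 CPM in WT and 8.33, 7.28 and 8.21 CPM in Nfkb2-/- libraries. Its groups were separated by less than 1 CPM, and the log2 difference was 0.32 (SE 0.18, edgeR's adjusted p = 0.414). Orc6, another subunit of that complex, differed by 0.77 (SE 0.19).

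Cdc6, the ATPase that loads the helicase, was at 3.06, 5.23 and 1.17 CPM in WT and at 13.3, 12.0 and 13.4 CPM in Nfkb2-/- libraries. WT 3 was the lowest and the Nfkb2-/- libraries were close together, and the log2 difference of 2.03 (SE 0.47) had an adjusted p of 0.0934 by edgeR. Its partner Cdt1 differed by 0.83 (SE 0.30) and was not called. The other helicase subunits were Mcm2 with a log2 difference of 1.30 (SE 0.24), Mcm4 with 0.95 (SE 0.23), Mcm5 with 1.26 (SE 0.28) and Mcm7 with 0.56 (SE 0.22), with edgeR's adjusted p between 0.0557 for Mcm2 and 0.249 for Mcm7.

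**Figure D2:**
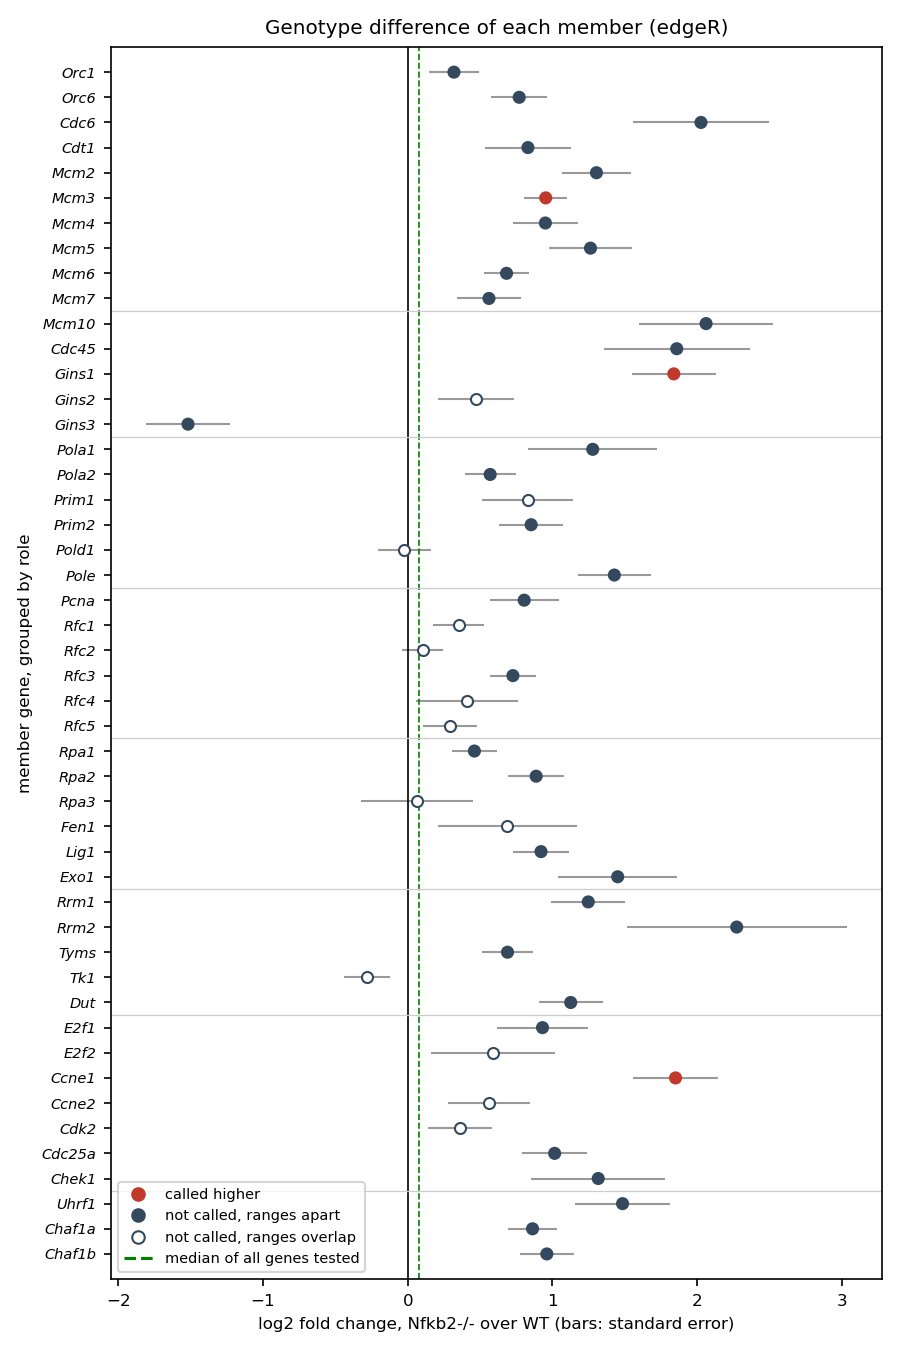
Log2 fold change of each member between Nfkb2-/- and WT libraries with its standard error (horizontal axis), with members grouped by role (vertical axis). Red points are the 3 called genes, open points the 13 members whose groups overlap, and the dashed line at 0.08 is the median of all genes tested, to the left of 44 members.

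Of the 5 helicase activation genes, 3 lay higher in all Nfkb2-/- libraries and 1 lay lower. By edgeR 1 was called higher, and by DESeq2 3 were called higher and 1 lower. Gins1, a subunit of the 4-part GINS complex that holds the active helicase together, was at 0.901, 1.26 and 0.792 CPM in WT and at 3.13, 3.63 and 3.84 CPM in Nfkb2-/- libraries. The groups were far apart, although the WT values rested on only 23 to 41 counts. The level rose by 1.84 on the log2 scale (SE 0.29, edgeR's adjusted p = 0.042).

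Gins3, its partner in the same complex, went the other way, with 34.0, 20.1 and 46.0 CPM in WT and 11.2, 12.1 and 11.7 CPM in Nfkb2-/- libraries. The WT libraries differed among themselves by more than 25 CPM, while the Nfkb2-/- libraries lay within 1 CPM of each other. The log2 difference was -1.52 (SE 0.29), which missed the threshold with edgeR's adjusted p = 0.0618. Gins2 had the largest p of the group, at 2.59, 2.37 and 3.54 CPM in WT and 3.66, 3.33 and 4.75 CPM in Nfkb2-/- libraries. Its groups overlapped, and the log2 difference was 0.47 (SE 0.26). Exons of Gse1 on the opposite strand cover 67.3% of the exon length of Gins2 in GENCODE M21, and the strand setting of the counting was not given, so reads of the overlap may be shared. Gins4, the remaining subunit, was at 22.2 to 24.3 CPM in WT and 22.6 to 26.1 CPM in Nfkb2-/- libraries.

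Mcm10, which helps to fire the loaded helicase, was at 2.04, 4.43 and 1.10 CPM in WT and at 10.1, 9.86 and 11.7 CPM in Nfkb2-/- libraries. WT 3 was again the lowest, and the log2 difference of 2.06 (SE 0.46) was not called (edgeR's adjusted p = 0.0878). Cdc45, the helicase cofactor, showed a log2 difference of 1.86 (SE 0.51) with WT values from 1.31 to 5.94 CPM, and was not called either. Both genes had WT coefficients of variation near that of Cdc6, 68.0% for Mcm10, 71.3% for Cdc45 and 64.4% for Cdc6.

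**Figure D3:**
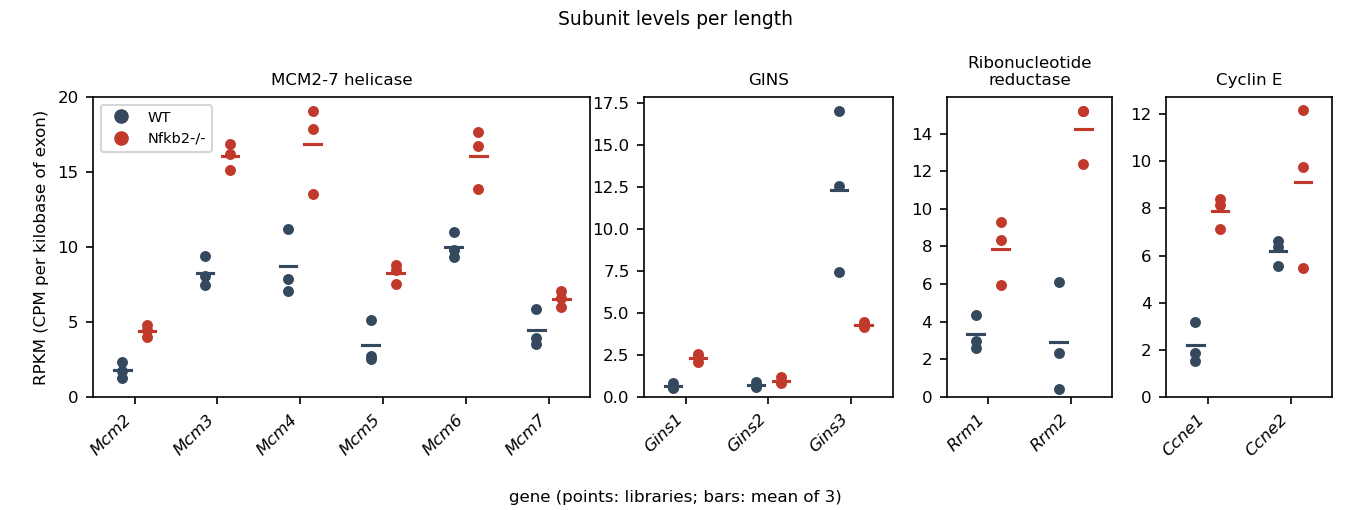
Levels per length (RPKM, vertical axes) of the subunits of the replicative helicase, 3 of the GINS subunits, ribonucleotide reductase and the E cyclins, with 1 point per library and a bar at the mean of 3. WT is dark and Nfkb2-/- is red, and Gins3 is the panel entry in which the WT points lie above the Nfkb2-/- points.

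Set per kilobase of merged GENCODE M21 exon (RPKM), the subunits of single complexes had unequal values. Comparisons between genes depend on these annotated lengths, such as 11012 bases for Rrm1 and 2771 for Rrm2. The lengths of the transcripts made in these cells were not known. Comparisons of 1 ratio between libraries do not depend on the lengths. Gins3 over Gins1 in RPKM was 21.1, 8.91 and 32.6 in WT and 2.0, 1.86 and 1.71 in Nfkb2-/- libraries. Since Gins3 lay lower and Gins1 higher in all Nfkb2-/- libraries, these ratios restate the values above. Gins1 and Gins2 had mean RPKM of 0.650 and 0.692 in WT and of 2.33 and 0.956 in Nfkb2-/- libraries. The RPKM of Rrm1 over that of Rrm2, the 2 subunits of ribonucleotide reductase, was 1.27, 0.719 and 6.20 in WT and 0.480, 0.551 and 0.614 in Nfkb2-/- libraries. WT 3 had the highest of these ratios, and its Rrm2 rested on 34 counts. Within the Mcm2 to Mcm7 ring the mean RPKM ran from 1.79 for Mcm2 to 10.0 for Mcm6 in WT and from 4.42 for Mcm2 to 16.9 for Mcm4 in Nfkb2-/- libraries.

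Among polymerases and primase, 4 of 6 genes had separate groups. None was called by edgeR, with 5 at an unadjusted p below 0.05, and 3 were called higher by DESeq2. Pole, the catalytic subunit of the leading strand polymerase, had the smallest p, with 11.8, 18.6 and 9.88 CPM in WT and 34.6, 34.2 and 39.6 CPM in Nfkb2-/- libraries. Every Nfkb2-/- value was far above the WT range, and the log2 difference of 1.43 (SE 0.25) just missed the threshold (edgeR's adjusted p = 0.0522). Pold1, the catalytic subunit of the lagging strand polymerase, was at 19.1, 18.2 and 24.3 CPM in WT and at 23.0, 18.2 and 19.3 CPM in Nfkb2-/- libraries. These groups lay on top of each other, with a log2 difference of -0.02 (SE 0.18).

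Pola1, the catalytic subunit of the polymerase that starts each strand with primase, was the most abundant of this group by CPM, at 18.4, 32.1 and 9.15 CPM in WT and 32.5, 51.5 and 60.9 CPM in Nfkb2-/- libraries. WT 2 and Nfkb2-/- 1 were almost level, and the log2 difference was 1.28 (SE 0.45, edgeR's adjusted p = 0.207). Its accessory subunit Pola2 differed by 0.57 (SE 0.18), and the primase subunits Prim1 and Prim2 by 0.83 (SE 0.32) and 0.85 (SE 0.22). Prim1 overlapped between the groups.

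The clamp and its loader had the lowest median log2 fold change of the 8 role groups, 0.38, with 4 of 6 genes overlapping. None was called by edgeR, with 2 at an unadjusted p below 0.05, which DESeq2 called higher. Rfc1, the large subunit of the loader, was the most abundant by CPM, at 45.3, 56.2 and 45.1 CPM in WT and 51.9, 72.0 and 63.3 CPM in Nfkb2-/- libraries. Nfkb2-/- 1 lay inside the WT range, and the log2 difference was 0.35 (SE 0.18). Rfc3, a small subunit, had the smallest p, at 9.61, 11.9 and 10.4 CPM in WT and 16.8, 18.6 and 17.5 CPM in Nfkb2-/- libraries. The groups were apart with little spread in either, and the log2 difference was 0.73 (SE 0.16, edgeR's adjusted p = 0.085).

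Rfc2 had the largest p in this group, at 21.4, 24.7 and 22 CPM in WT and 25.1, 23.4 and 24.7 CPM in Nfkb2-/- libraries. All 6 values of Rfc2 lay within 4 CPM of each other. Pcna, the sliding clamp, was at 19.1, 24.3 and 13.7 CPM in WT and at 27.8, 35.1 and 36.9 CPM in Nfkb2-/- libraries, with a log2 difference of 0.80 (SE 0.24). Its groups did not overlap, and it was not called (edgeR's adjusted p = 0.152). GENCODE M21 names pseudogene copies of Pcna and of Tyms, so reads of these genes may have been split or shared. The loader subunits Rfc4 and Rfc5 differed by 0.41 (SE 0.35) and 0.29 (SE 0.19), and both overlapped.

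Of the 6 genes for single strand binding and Okazaki fragment processing, 4 had separate groups. None was called by edgeR, with those 4 at an unadjusted p below 0.05, and 3 were called higher by DESeq2. Lig1, the ligase that seals lagging strand fragments, had the smallest p, with 11.4, 15.3 and 9.98 CPM in WT and 22.6, 22.1 and 24.8 CPM in Nfkb2-/- libraries. All 3 Nfkb2-/- values lay above the WT range, and the log2 difference was 0.92 (SE 0.20, edgeR's adjusted p = 0.0779). Rpa1, the large subunit of the single strand binding protein RPA, was the most abundant by CPM, at 37.3, 43.8 and 39.6 CPM in WT and 47.4, 59.8 and 58.9 CPM in Nfkb2-/- libraries. The groups were narrowly apart, with a log2 difference of 0.46 (SE 0.15).

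Rpa3, the smallest RPA subunit, was at 9.23, 7.20 and 15.8 CPM in WT and at 6.38, 12.7 and 14.5 CPM in Nfkb2-/- libraries. WT 3 was the highest library and Nfkb2-/- 1 the lowest, and the log2 difference was 0.06 (SE 0.39). The middle subunit Rpa2 differed by 0.89 (SE 0.19, edgeR's adjusted p = 0.0792) and the nuclease Exo1 by 1.45 (SE 0.41). Fen1, the flap endonuclease, was counted only 14 to 60 times per library, its groups overlapped, and exons of Gm10143 on the opposite strand cover 78.8% of its exon length.

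Of the 5 nucleotide synthesis genes, 4 had separate groups with higher Nfkb2-/- values and a salvage enzyme overlapped. None was called by edgeR, with 4 at an unadjusted p below 0.05, and 4 were called higher by DESeq2. Tk1, the thymidine kinase of salvage, had the highest CPM of all members and the largest p of its group, at 139, 124 and 166 CPM in WT and 127, 113 and 113 CPM in Nfkb2-/- libraries. Nfkb2-/- 1 lay inside the WT range, and the log2 difference was -0.28 (SE 0.16, edgeR's adjusted p = 0.422). Dut, which clears dUTP, had the smallest p, with 6.83, 7.35 and 5.23 CPM in WT and 11.6, 17.1 and 13.8 CPM in Nfkb2-/- libraries. Its lowest Nfkb2-/- value was above the highest WT value, with a log2 difference of 1.13 (SE 0.22, edgeR's adjusted p = 0.0646).

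Rrm2, the ribonucleotide reductase subunit made in S phase, was at 6.43, 16.9 and 1.17 CPM in WT and at 34.3, 42.1 and 42.1 CPM in Nfkb2-/- libraries. WT 3 was more than 10 times lower than WT 2, and Rrm2 had the widest spread of all members in WT (coefficient of variation 98.0%). Its log2 difference of 2.27 was the largest of the 48 but had an SE of 0.76 (edgeR's adjusted p = 0.191). Rrm1, the large subunit, differed by 1.25 (SE 0.26, edgeR's adjusted p = 0.0708), and the thymidylate synthase gene Tyms by 0.69 (SE 0.18).

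Among the 7 regulators 1, cyclin E1, was called by edgeR, and 2 were called by DESeq2. Ccne1, the Cdk2 partner that triggers entry into S phase, was at 4.01, 8.49 and 4.99 CPM in WT and at 19.0, 22.4 and 21.6 CPM in Nfkb2-/- libraries. The lowest Nfkb2-/- value was more than 2 times the highest WT value. The level rose by 1.85 on the log2 scale (SE 0.29, edgeR's adjusted p = 0.042).

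Ccne2, the other E cyclin, was at 19.4, 23.2 and 22.3 CPM in WT and 19.1, 34.0 and 42.6 CPM in Nfkb2-/- libraries. Nfkb2-/- 1 was below every WT library, and the log2 difference was 0.56 (SE 0.29). Per length, Ccne2 over Ccne1 in RPKM was 3.69, 2.08 and 3.40 in WT and 0.765, 1.16 and 1.50 in Nfkb2-/- libraries. All 3 Nfkb2-/- ratios lay below the WT ratios, which restates the larger difference of Ccne1 in the values above.

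Cdk2, the kinase of both E cyclins, had the highest CPM of the regulators, at 32.0, 39.4 and 56.5 CPM in WT and 56.0, 55.6 and 52.6 CPM in Nfkb2-/- libraries. WT 3 was the highest of all 6 libraries here, and the log2 difference was 0.36 (SE 0.22). E2f2, an activating E2F, had the largest p of the group, with 14.1, 22 and 5.71 CPM in WT and 18.2, 20.9 and 23.8 CPM in Nfkb2-/- libraries. WT 2 lay inside the Nfkb2-/- range, and the log2 difference was 0.59 (SE 0.43). E2f1, the other activating E2F in the list, differed by 0.93 (SE 0.32), the Cdk-activating phosphatase gene Cdc25a by 1.02 (SE 0.22) and the checkpoint kinase gene Chek1 by 1.32 (SE 0.46), none of them called.

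The 3 chromatin genes all had separate groups and edgeR's adjusted p between 0.0625 and 0.085, and all 3 were called higher by DESeq2. Uhrf1, which guides maintenance DNA methylation after the fork, was at 13.9, 26.6 and 13.1 CPM in WT and at 36.5, 59.0 and 54.6 CPM in Nfkb2-/- libraries. WT 2 was the highest WT library, and the log2 difference was 1.48 (SE 0.33). Chaf1b, a subunit of the histone chaperone CAF-1, was at 5.98, 7.54 and 5.95 CPM in WT and at 14.3, 11.8 and 11.8 CPM in Nfkb2-/- libraries. Both groups were tight and apart, with a log2 difference of 0.96 (SE 0.19). Chaf1a, the large CAF-1 subunit, differed by 0.86 (SE 0.17), but exons of Ubxn6 on the opposite strand cover 52.5% of its exon length.

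The E2F word was found in 12 of 29 members with a promoter entry whose Nfkb2-/- values were all above WT (41.4%) and in 4 of the other 11 (36.4%). Among the called genes Mcm3 had 2 such words, Ccne1 had none in its window and Gins1 had no entry. Cdc6, Mcm5 and Mcm6, shown above, lay higher in Nfkb2-/- libraries, whereas Gins3 with 1 word lay lower.

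Of 36 further replication genes, 1 was called higher by edgeR and 12 by DESeq2, 16 had their Nfkb2-/- values all above WT, 1 (Mcm9) had them all below, and the median log2 fold change was 0.49, beside 0.84 for the members. The shares of all genes tested were 0.453%, 4.33%, 12.7% and 12.0%. The most abundant of these genes by CPM, the topoisomerase gene Top1, was at 193, 212 and 296 CPM in WT and at 166, 245 and 221 CPM in Nfkb2-/- libraries, with overlapping groups.

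The other E2F and RB genes gave no call by edgeR and 4 by DESeq2, in 14 tested of 15. In 7 of them the Nfkb2-/- values were all above WT and in 1, Rbl2, all below, with a median log2 fold change of 0.49 and unadjusted p-values below 0.05 for 7 genes. Rb1, the retinoblastoma gene and the most abundant by CPM, was at 279, 209 and 334 CPM in WT and 172, 260 and 270 CPM in Nfkb2-/- libraries, which overlapped. Further nucleotide supply genes gave no call by edgeR and 6 by DESeq2, in 11 tested of 12, with 6 higher and 1 lower by their ranges, 6 higher and 1 lower at an unadjusted p below 0.05, and a median of 0.64. Samhd1, which breaks down deoxynucleotides, was the most abundant of them by CPM, at 693, 727 and 1052 CPM in WT and 729, 772 and 615 CPM in Nfkb2-/- libraries. Its groups overlapped.

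Mitosis genes had a median log2 fold change of 1.60 over 24 genes, beside 0.84 for the members, and the difference between the lists was not tested. In 22 of them all Nfkb2-/- values lay above WT, and 2 were called higher by edgeR and 21 by DESeq2. The shares of all genes tested were 12.7%, 0.453% and 4.33%. Plk1, a kinase of mitotic entry, was at 1.95, 4.09 and 1.45 CPM in WT and at 13.4, 11.1 and 14.1 CPM in Nfkb2-/- libraries. The groups were far apart, and Plk1 rose by 2.37 on the log2 scale (SE 0.39, edgeR's adjusted p = 0.0444). Mad2l1, a spindle checkpoint gene, was at 17.9, 28.1 and 13.0 CPM in WT and at 52.8, 69.7 and 78.8 CPM in Nfkb2-/- libraries. It too was separate between genotypes and rose by 1.77 on the log2 scale (SE 0.30, edgeR's adjusted p = 0.0494).

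Mki67, the proliferation marker and the most abundant mitosis gene by CPM, was at 58.5, 205 and 27.9 CPM in WT and at 240, 354 and 400 CPM in Nfkb2-/- libraries. WT 2 came close to Nfkb2-/- 1, and Mki67 was not called. WT 2 was the highest WT library in 24 of 24 mitosis genes and WT 3 the lowest in 22, the same libraries as for most members.

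**Figure D4:**
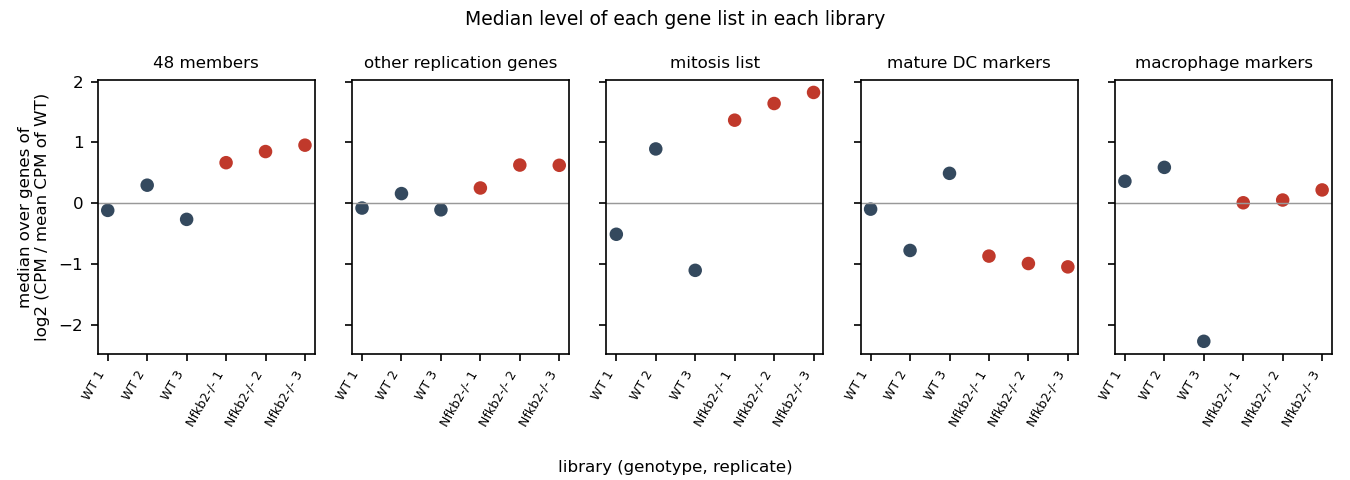
Median over the genes of each list of the log2 ratio of CPM to the WT mean (vertical axis) in each library (horizontal axis), with WT in dark and Nfkb2-/- in red. The 48 members have their 3 Nfkb2-/- medians at 0.67 to 0.96, above WT 2 at 0.30, the mitosis list spreads from -1.10 in WT 3 to 0.89 in WT 2 among WT libraries, and the macrophage markers are lowest in WT 3 at -2.27.

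Markers of other cells and states also varied between these libraries, and their part in the members' differences was not tested. Summed over 7 macrophage genes, the level was 858, 1011 and 138 CPM in WT and 547, 632 and 743 CPM in Nfkb2-/- libraries. WT 3 was the lowest of the WT libraries in 7 of 7 macrophage genes, the Nfkb2-/- sums lay between WT 3 and WT 1, and none was called by edgeR or DESeq2, or had an unadjusted p below 0.05 by either. With WT 3 and Nfkb2-/- 1 both left out, 1 of the 7 was called lower by edgeR and 3 were lower at an unadjusted p below 0.05. Over 5 mature dendritic cell genes the sum was 11730, 8362 and 16770 CPM in WT and 8166, 7999 and 7538 CPM in Nfkb2-/- libraries. WT 3, with the lowest value for most members, was the highest WT library in all 5 mature dendritic cell genes. By edgeR none of these was called, with 3 lower at an unadjusted p below 0.05, and DESeq2 called 2 lower. Fscn1 and Cd83 had all their Nfkb2-/- values below WT.

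Itgax was called higher, at 160, 277 and 123 CPM in WT and 745, 769 and 716 CPM in Nfkb2-/- libraries, and was the only one of 8 dendritic cell genes called by edgeR or DESeq2. By edgeR 2 of the 8 were higher and 1 lower at an unadjusted p below 0.05. The lower one, the transcription factor gene Zbtb46, was at 168, 151 and 218 CPM in WT and 115, 136 and 119 CPM in Nfkb2-/- libraries, with all 3 Nfkb2-/- values below WT. Stem and progenitor genes went in different directions, with none of 5 called by edgeR, and 2 called higher and 1 lower by DESeq2. Cd34, found on progenitors, was at 1.64, 4.61 and 0.585 CPM in WT and at 27.8, 27.7 and 27.1 CPM in Nfkb2-/- libraries, just outside the threshold (edgeR's adjusted p = 0.0536). Kit and Myb overlapped between the groups, Gata2 lay higher in all 3 Nfkb2-/- libraries and Sox4 lower. Their summed level was 239 to 569 CPM in WT and 172 to 198 CPM in Nfkb2-/- libraries, with Sox4 the largest share of it.

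Summed neutrophil genes lay at 83.5 to 224 CPM in WT and 116 to 124 CPM in Nfkb2-/- libraries, with 7 of 9 tested and the precursor genes Elane and Ctsg below the filter. None of them was called by edgeR, with 2 lower at an unadjusted p below 0.05, both called by DESeq2. Mast cell and basophil genes summed to 8.58 to 14 CPM in WT and 2.87 to 3.87 CPM in Nfkb2-/- libraries, and 1 of the 4 tested, Cpa3, was called lower. The 4 tested lymphocyte genes summed to at most 4.67 CPM, in Nfkb2-/- 1, with no call by either tool. Stromal genes ran from 0.998 CPM in WT 3 to 53.5 CPM in WT 1, with 5.67 to 25.5 CPM in Nfkb2-/- libraries and no call by either tool. Leaving out both libraries that stood apart, WT 3 and Nfkb2-/- 1, edgeR called 9 members higher and none lower. Of the 18703 genes then tested, 435 were called higher and 473 lower. Mcm3 and Gins1 were still called and Ccne1 was not, and the median log2 fold change of the members was 0.81.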

How the data were processed

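RNA of 6 BMDC cultures was sequenced by the authors, and the deposited files give raw read counts per gene for each library, unnormalized. The submitters' processing notes name HISAT2 and the build GRCm38 (mm10). The counting tool, its strand setting and the annotation release were not given in the sources used here. Gene identifiers matched names for 52073 of 56748, and the 4675 unnamed identifiers, with 1.01 to 1.75% of the counts, were left out of library sizes and tests.

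Named genes whose counts summed to 50 or more were tested between genotypes with edgeR 4.0.16 (quasi-likelihood test, TMM factors, no covariate, R 4.3.3), with Benjamini-Hochberg adjustment over all 21849 genes. A gene was called at an adjusted p below 0.05 and a fold change over 1.2. Fold changes and SE are on the log2 scale of the fit. The method was run on simulated counts with 1 dispersion for all genes (0.219) and changes larger than those of most members. That run therefore does not cover differences of the size seen in most members. The deposited counts are thus expressed as CPM, and RPKM as CPM per kilobase of merged GENCODE M21 exons, which differs from the newer annotation behind the files. An exact permutation test of 3 against 3 libraries cannot go below 0.1 (two-sided) and was not used.

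The members, the other lists and the markers were chosen with earlier results of these data known. Values in every library are given for called genes and, per role, for the gene with the highest mean CPM, the smallest p and the largest p, and further members were added after their values were seen. The values of 1 gene of the other lists are not reported here. DESeq2 1.42.0, limma 3.58.1 (voom), other scalings, filters and limits, a replicate block and leaving out libraries were tried as alternatives, and the removal of WT 3 and Nfkb2-/- 1 together was chosen after seeing the data.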

Additional observations from a re-analysis of the deposited data

How the results depend on the processing

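The median log2 fold change of the members stayed positive, between 0.72 and 1.05, in every alternative run. The median of all genes tested ran from -0.03 to 0.17, except 0.60 with at least 1 count in any library, where the members' median was 0.78. The counts of called genes moved widely. With DESeq2, 27 members were called higher and 1 lower, with 1878 genes called in all against 248 by edgeR, and 43 genes of the other 4 replication, E2F, mitosis and nucleotide lists against 3. With limma voom these were 13 members higher, 488 genes and 13 genes of the other lists. Scaling to total counts alone left 1 member higher and 1 gene of the other lists, with 247 genes called in all. The filterByExpr filter gave 5 members higher, 1 lower and 397 genes, at least 1 count in any library 18, 1, 1625 and 42 of the other lists, and at least 10 counts in every library 8, 1, 459 and 5. An adjusted p below 0.1 gave 19 members higher, 1 lower, 808 genes and 12 of the other lists. Without WT 3 and Nfkb2-/- 1 together, 9 members and 908 genes were called.

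With a replicate block edgeR called 0 members, 0 genes and 0 of the other lists, with 3331 genes at an unadjusted p below 0.05 and 34 members among those higher. Same-numbered libraries correlated by 0.11, 0.09 and -0.04 in their deviations from the mean of their genotype, and differently numbered ones by -0.12 to 0.12. With 3 libraries per genotype these values cannot exclude pairs. The labels do not say that same-numbered libraries were paired, and the main fit used no pairs.

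Leaving out 1 library at a time, members called higher ran from 0 to 26, members lower from 0 to 1, all genes called from 0 to 1248, and genes of the other lists from 0 to 39. The counts were 0 without WT 1, Nfkb2-/- 1, Nfkb2-/- 2 or Nfkb2-/- 3, where edgeR still gave 2325, 4088, 2580 and 2726 genes at an unadjusted p below 0.05, and the highest without WT 2. Without WT 3, 270 genes were called in all. The 1 member among them was Cdc6, and Mcm3, Gins1 and Ccne1 were not called. Each of these 3 passed in 8 of 15 alternatives, and 17 of the 48 members passed in none. Pold1 changed sign with total counts (0.091), and leaving out 1 library gave log2 differences from -0.135 to 0.119 for Pold1 and from -0.164 to 0.452 for Rpa3, so that both crossed 0. Fen1 and Gins1 had under 50 counts in each WT library, and the causes of these shifts were not tested.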
